A study of Mus musculus with 12 samples.

Results

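The receptor genes for serotonin, noradrenaline and acetylcholine were examined in RNA-Seq of mouse brain cortex. They are 33 genes of the 50563 in the count table, taken by gene symbol in the GRCm38 annotation: 12 serotonin receptor genes, 7 adrenergic receptor genes, 5 muscarinic and 9 nicotinic acetylcholine receptor genes. The rule lists symbols and uses no expression value, and it does not take in every gene of these families. The study asked whether docosapentaenoic acid of the omega-6 series, DPAn-6, alters neuroinflammation in mice with amyloid disease. All 12 mice were E4FAD mice of genotype APOE4+/+, 5FAD-/+, which carry human APOE4 in place of the mouse gene and the 5xFAD transgenes, which are driven by the neuronal Thy1 promoter. In the CTRL group, 7 mice (4 females and 3 males, 2 of them aged 12 months and 5 aged 14 months) received vehicle by gavage. In the DPAn-6 group, 5 mice (3 females and 2 males, 2 aged 12 months and 3 aged 14 months) received DPAn-6 by daily oral gavage for 3 weeks. The antioxidants alpha-tocopherol and palmitoyl ascorbic acid were given to both groups. Sex is not labelled mouse by mouse, and no mice without the transgenes enter the comparison.

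Serotonin, noradrenaline and acetylcholine reach the cortex through long axons of cells that lie mostly in the raphe nuclei, the locus coeruleus and the basal forebrain, so that the cortex holds the receptors while most of the transmitter-making cells lie elsewhere. Most of these receptors are G protein-coupled: those that couple to Gq raise calcium through phospholipase C, those that couple to Gi lower cyclic AMP and dampen release or firing, and those that couple to Gs raise cyclic AMP. Htr3a and the nicotinic subunits instead form cation channels, nicotinic channels from 5 subunits of which several kinds can combine. Loss of cholinergic input to the cortex is a known feature of Alzheimer's disease, and drugs that slow the breakdown of acetylcholine are used to treat it.

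Promoter sequences are shown for 3 receptors on which the comparison below turns: Adra2a, with the lowest adjusted p of all the receptors, and Chrm3 and Chrm4, the receptors whose values did not overlap between the groups. Each is the RefSeq window on GRCm38 from 250 bases before to 50 bases after the annotated start, written 5′ to 3′ on the strand of the gene. Capitals mark a GC box (GGGCGG, or CCGCCC on the other strand) or a TATA box (TATAAA, or TTTATA on the other strand). The windows lie at chr19:54045009-54045308 on the plus strand (Adra2a), chr13:10360754-10361053 on the minus strand (Chrm3) and chr2:91921939-91922238 on the plus strand (Chrm4).
Adra2a: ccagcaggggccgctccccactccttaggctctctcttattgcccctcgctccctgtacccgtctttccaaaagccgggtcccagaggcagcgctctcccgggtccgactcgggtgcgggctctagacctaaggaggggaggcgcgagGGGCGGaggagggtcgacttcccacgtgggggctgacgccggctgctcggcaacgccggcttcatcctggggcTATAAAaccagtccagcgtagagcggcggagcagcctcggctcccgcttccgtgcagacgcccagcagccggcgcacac
Chrm3: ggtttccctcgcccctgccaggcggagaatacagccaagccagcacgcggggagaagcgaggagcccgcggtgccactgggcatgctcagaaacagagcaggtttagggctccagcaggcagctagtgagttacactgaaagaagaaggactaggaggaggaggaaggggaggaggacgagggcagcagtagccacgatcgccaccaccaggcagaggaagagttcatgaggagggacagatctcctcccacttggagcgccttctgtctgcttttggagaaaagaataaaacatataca
Chrm4: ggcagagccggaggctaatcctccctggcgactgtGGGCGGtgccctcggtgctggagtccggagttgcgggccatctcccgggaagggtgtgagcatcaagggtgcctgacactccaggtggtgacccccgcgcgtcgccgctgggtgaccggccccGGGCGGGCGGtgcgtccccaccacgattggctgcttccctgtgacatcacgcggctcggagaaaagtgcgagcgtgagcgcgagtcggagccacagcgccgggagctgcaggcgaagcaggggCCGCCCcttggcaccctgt
The Chrm4 window held 4 GC boxes, 2 of which overlap in 1 run, and no TATA box. The Adra2a window held 1 GC box and 1 TATA box. The Chrm3 window held neither. Of the windows of all genes, 35.7% held a GC box and 13.6% a TATA box, and among the 28 windows of the 24 receptors with a RefSeq window, 17 held a GC box and 1, that of Adra2a, a TATA box. Such a match describes the letters of the window and is not evidence that a factor binds there. The RefSeq start of Chrm4 lies 5060 bases upstream of the start in the GENCODE M21 annotation, in which the gene is a single exon of 1440 bases. The RefSeq start of Adra2a lies 1108 bases downstream of its GENCODE start, and that of Chrm3 lies within 44 bases of it.

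Libraries held 15339098 to 19500154 counts in the CTRL group and 15208803 to 26520251 in the DPAn-6 group. Values are given as CPM (counts divided by the total of the library and scaled to 1000000 counts), so that 3 counts, the limit that a count of 0 allows, correspond to 0.113 CPM in the deepest and 0.197 CPM in the shallowest library; this covers counting error only. The markers of cortical excitatory neurons, 8 of 8, were counted in every library, as the tissue label requires. So were those of striatum (8 of 8), of medial habenula and thalamus (8 of 8) and of hippocampus (7 of 7), so being counted does not tell cortex from its neighbours. Some libraries stood apart. In CTRL replicate 3, 614 genes with GC-rich transcripts (GC above 60%) had a median deviation of -0.63 on the log2 scale from their mean over all mice and 772 GC-poor genes (GC below 40%) one of 0.58, against -0.10 to 0.19 and -0.30 to 0.22 in the other 11 libraries. The summed level of 9 choroid plexus markers was 1707 CPM in CTRL replicate 2, 1058 CPM in CTRL replicate 5 and 221 CPM in CTRL replicate 3, against 9.92 to 37.3 CPM in the other 9 libraries. Among marker lists of the other cell types, the summed level of 8 inhibitory neuron genes was higher in each DPAn-6 mouse (1017 to 1180 CPM) than in each CTRL mouse (784 to 978 CPM), that of 8 mural and meningeal genes was lower (210 to 237 against 242 to 340 CPM), and that of 8 microglial genes overlapped (626 to 847 against 828 to 1250 CPM). In such bulk samples, fewer cells of a type and less RNA per cell cannot be told apart, and the part of these lists in the receptor values was not tested.

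Expressed per kilobase of exon and averaged over the 12 mice, the levels spanned from the muscarinic M1 receptor gene Chrm1, at 38 ± 2.74 CPM per kilobase (SD), to the nicotinic subunit gene Chrnb4, at 0.0579 ± 0.0615. Among the serotonin receptors the order was Htr5a (5.63 ± 0.696), Htr2a (4.27 ± 0.782), Htr1a (3.98 ± 0.506), Htr6 (2.64 ± 0.589), Htr3a (2.62 ± 0.452), Htr7 (2.55 ± 0.360), Htr2c (2.51 ± 0.795), Htr1b (1.95 ± 0.237), Htr1f (1.14 ± 0.258), Htr5b (0.371 ± 0.158), Htr1d (0.333 ± 0.154) and Htr4 (0.313 ± 0.0894), all in CPM per kilobase. Htr5a exceeded Htr2a in 12 of 12 mice, whereas Htr2a exceeded Htr1a in 6 of 12. Htr6, Htr3a, Htr7 and Htr2c followed each other with ratios of 1.01 to 1.03 and could not be placed in order, since each exceeded the next in 6 to 8 of 12 mice. Htr1f exceeded Htr5b 3.07-fold and in 12 of 12 mice, and below that step Htr5b, Htr1d and Htr4 were not separated either.

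**Figure D1:**
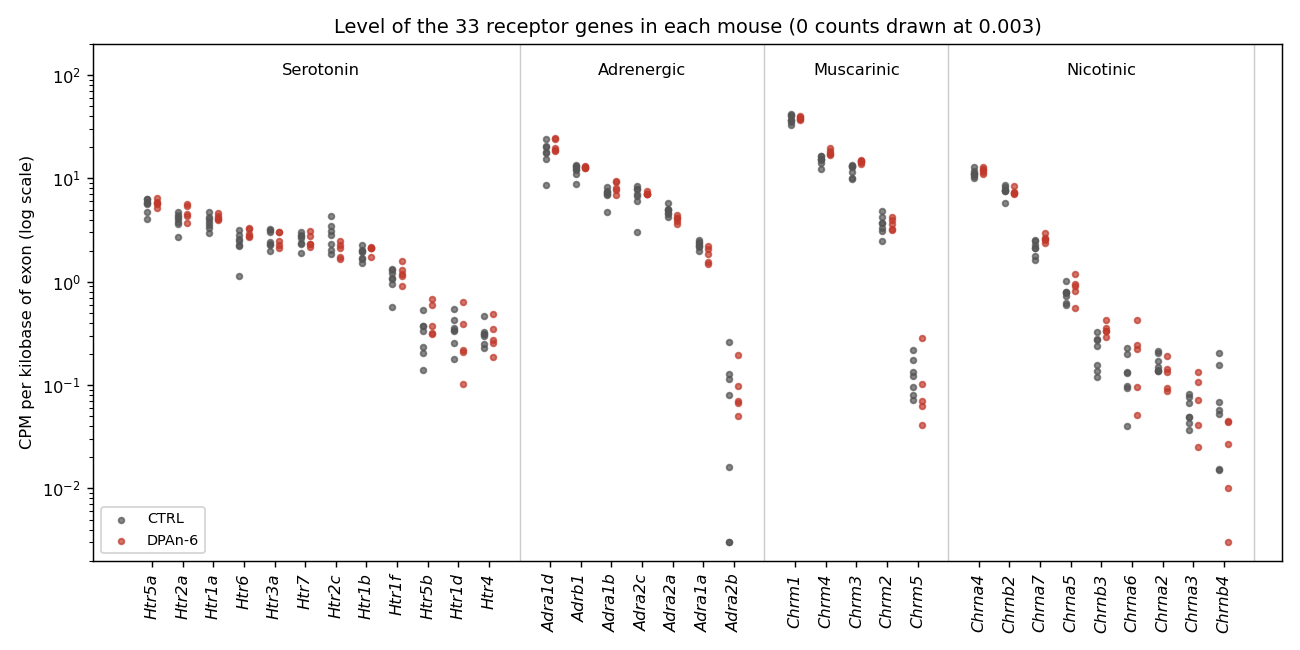
Level of each of the 33 receptor genes in CPM per kilobase of exon on a log axis, with 1 point per mouse (grey, 7 CTRL; red, 5 DPAn-6) and genes ordered by their mean level within each class. Chrm1 stands highest, with a mean of 38, and Adra2b, Chrm5, Chrna3 and Chrnb4 lie at the bottom of their classes; counts of 0 are drawn at 0.003.

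Among the adrenergic receptors Adra1d stood highest at 19.2 ± 4.34 CPM per kilobase, followed by Adrb1 (12.3 ± 1.25), Adra1b (7.53 ± 1.22), Adra2c (6.92 ± 1.38), Adra2a (4.53 ± 0.586), Adra1a (2.09 ± 0.322) and, 23.1-fold below Adra1a, Adra2b (0.0903 ± 0.0784). Adra1b and Adra2c were the neighbours least separated, with Adra1b higher in 9 of 12 mice. Among the muscarinic receptors Chrm1 was followed by Chrm4 (16.2 ± 1.92), Chrm3 (13.1 ± 1.75), Chrm2 (3.63 ± 0.634) and Chrm5 (0.122 ± 0.0717), each above the next in 12 of 12 mice. The exon models of Chrm4 and Chrm5 hold the coding part alone, so that their levels per kilobase are not on the same footing as those of the other receptors. Among the nicotinic subunits Chrna4 (11.6 ± 0.861) and Chrnb2 (7.57 ± 0.749), which together form the most common nicotinic receptor of the brain, and Chrna7 (2.33 ± 0.377), which forms channels by itself, stood above Chrna5 (0.814 ± 0.180), Chrnb3 (0.272 ± 0.0938), Chrna6 (0.165 ± 0.109), Chrna2 (0.149 ± 0.0391), Chrna3 (0.0650 ± 0.0314) and Chrnb4. Chrna6 and Chrna2 were not separated, with Chrna6 higher in 5 of 12 mice.

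Exons of 5 receptors overlap those of a gene on the opposite strand: 18.0% of the exon length of Htr1b overlaps D430036J16Rik, 16.3% of Chrnb2 overlaps Adar, 7.74% of Adra1d overlaps Gm14285, 5.07% of Chrm1 overlaps Gm22820 and 2.35% of Chrm2 overlaps 9330158H04Rik. Whether reads were counted by strand is not given in the sources used here. The levels of these receptors, Chrnb2 foremost because Adar had 58055 counts in all, may therefore hold reads of the partner.

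Too few counts for a test were found for 4 of the 33 receptors, which did not reach the minimum of about 10 counts in 5 libraries. Adra2b, a Gi-coupled adrenergic receptor, had 0 to 18 counts in the CTRL mice, with 2 of them at 0, and 4 to 21 in the DPAn-6 mice. Chrm5, the muscarinic receptor known from midbrain dopamine neurons, had 2 to 6 and 1 to 12 counts. The nicotinic subunits Chrna3 and Chrnb4, which pair in autonomic ganglia and the medial habenula, had 3 to 8 and 2 to 14 counts, and 1 to 13 and 0 to 3 counts. At this depth these receptors were left out of the main test. DESeq2 and the setting without a filter also took in genes with few counts. There, receptors with a lower mean in the DPAn-6 mice and an unadjusted p below 0.05 numbered 4, against 3 in the main fit. The added receptor was among those outside the main test. With Chrna5, which was tested, Chrna3 and Chrnb4 form a gene cluster on chromosome 9 (GRCm38, 54980880 to 55048779).

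The question of the comparison was whether receptor expression differed between the DPAn-6 and CTRL mice. Of the 29 receptors tested, 0 reached an adjusted p below 0.05 in edgeR's quasi-likelihood test, against 1.55% of the 15688 genes tested, and the lowest adjusted p was 0.101 (Adra2a). At an unadjusted p below 0.05 stood 7 of the 29 (24.1%), against 14.5% of all genes. They were Chrm3, Chrm4, Chrna7 and Chrnb3, which had the higher mean in the DPAn-6 mice (13.8% of the receptors, against 5.51% of all genes), and Htr2c, Adra1a and Adra2a, which had the lower (10.3%, against 9.02%). DESeq2 gave 1 receptor at an adjusted p below 0.05 (Adra2a, adjusted p = 0.0359), against 2.22% of the 30213 genes to which it gave a p, and limma-voom gave 0, against 1.43%. With sample weights limma-voom gave 4 (Adra1a, Adra2a, Chrm3 and Chrnb3), against 8.08% of all genes. The 2 groups did not overlap for Chrm3 and Chrm4, which is 6.90% of the receptors, against 3.22% of all genes. The median log2 fold change of the 29 receptors was 0.07, beside -0.0047 for all genes tested. By class it was 0.07 for the 12 serotonin receptors, 0.07 for 6 adrenergic, 0.11 for 4 muscarinic and 0.18 for 7 nicotinic genes. By coupling it was 0.21 for 7 Gq-coupled, 0.09 for 10 Gi-coupled and 0.04 for 4 Gs-coupled receptors, and 0.13 for 8 channel subunits. In that order, receptors with a higher and a lower mean numbered 4 and 3, 7 and 3, 3 and 1, and 5 and 3. Of all genes tested, 48.7% had a positive log2 fold change. The Gq-coupled receptors ranged from -0.508 to 0.255.

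**Figure D2:**
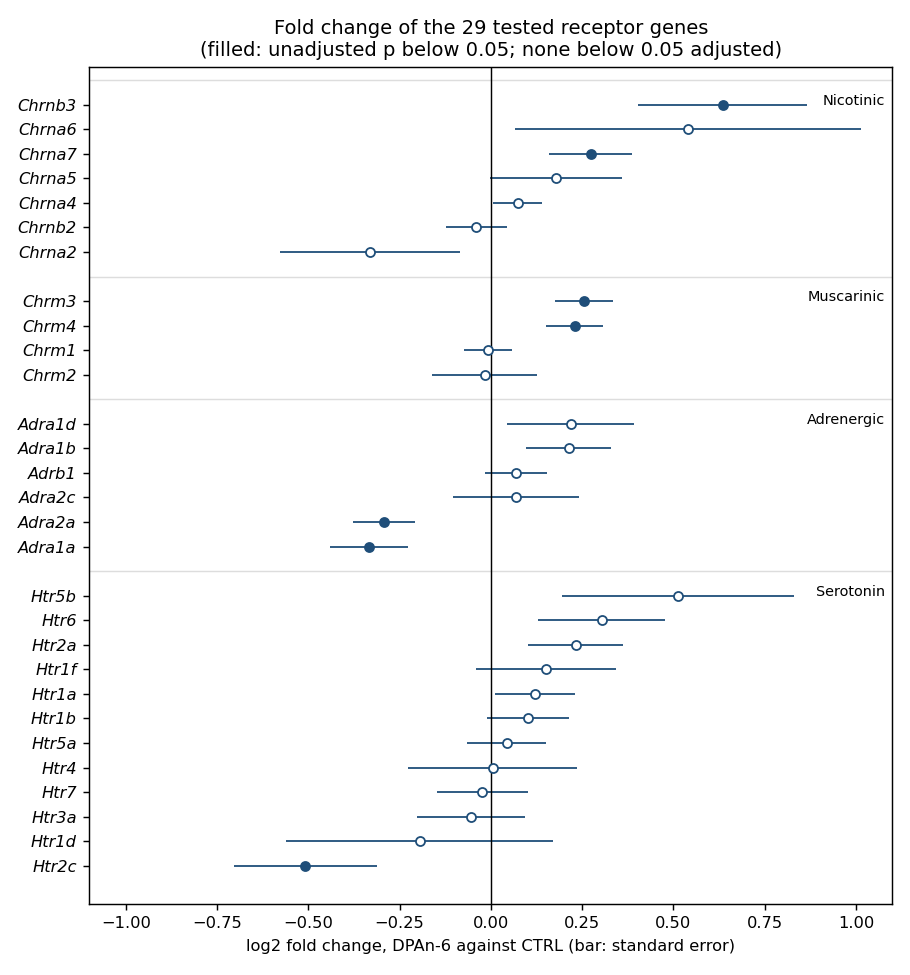
Log2 fold change of the 29 tested receptor genes (x axis, DPAn-6 against CTRL) by class, with bars of 1 standard error; filled points have an unadjusted p below 0.05. The 7 filled points range from -0.51 (Htr2c) to 0.64 (Chrnb3), and no receptor had an adjusted p below 0.05.

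Among the serotonin receptors, 8 of 12 had a higher and 4 a lower mean in the DPAn-6 mice, with log2 fold changes of -0.51 to 0.51. Of all genes tested, 48.7% had a positive log2 fold change, and 14.5% had an unadjusted p below 0.05. Among these 12 receptors 1 had such a p. This was Htr2c, a Gq-coupled receptor on the X chromosome that is made in cortical neurons and, at far higher levels, in the epithelium of the choroid plexus. Htr2c stood at 17.3, 26.3 and 40.4 CPM (lowest, median and highest) in the CTRL mice and at 15.3, 19.6, 21.3, 22.9 and 16.0 CPM in the DPAn-6 mice. The 3 highest values were those of CTRL replicates 3 (40.4), 5 (32.1) and 2 (29.1), the groups overlapped, and 2 DPAn-6 mice lay below all CTRL mice. The log2 fold change was -0.51 (SE 0.20, edgeR unadjusted p = 0.0213, adjusted p = 0.239), and permuting the group labels over the mice (exact permutation test on log2 CPM, two-sided) gave p = 0.072.

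CTRL replicates 2, 3 and 5, the mice highest in Htr2c, were also the mice highest in the choroid plexus markers. With these 3 libraries left out together, a choice made after the data were seen, the log2 fold change of Htr2c was -0.17 (edgeR unadjusted p = 0.236). Since they hold the 3 highest Htr2c values, leaving them out had to bring the groups closer, and this value does not bear on the markers. With the choroid plexus gene Ttr as a covariate the log2 fold change was -0.10 (edgeR unadjusted p = 0.670). The 3 libraries high in choroid plexus markers were all CTRL, so this covariate and treatment are partly confounded. Over all 15688 genes it left 679 lower at an unadjusted p below 0.05, against 1415 without it. The part of the choroid plexus markers in the Htr2c values was not tested. Without CTRL replicate 3 alone the log2 fold change of Htr2c was -0.37 (edgeR unadjusted p = 0.0278), the smallest with 1 mouse left out. Without DPAn-6 replicate 1 it was -0.43 (unadjusted p = 0.0614), and without DPAn-6 replicate 5 it was -0.44 (unadjusted p = 0.0593). CTRL replicate 3 was also the library with high GC-poor transcripts, and the Htr2c transcript has a GC content of 42.1%. Once trends on GC content and transcript length had been taken out of each library, the Htr2c value was -0.50 (unadjusted p = 0.00467). CTRL replicates 2, 3 and 5 were all 14 months old, and the other CTRL mice of that age, replicates 4 and 6, stood at 26.3 and 18.9 CPM. Htr2c averaged 29.4 CPM in the 5 CTRL mice and 17.0 CPM in the 3 DPAn-6 mice of 14 months, and 19.5 and 22.1 CPM in the 2 and 2 mice of 12 months. The interaction of treatment and age was -1.0 on the log2 scale (SE 0.35, edgeR unadjusted p = 0.0127, adjusted p = 0.905).

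**Figure D3:**
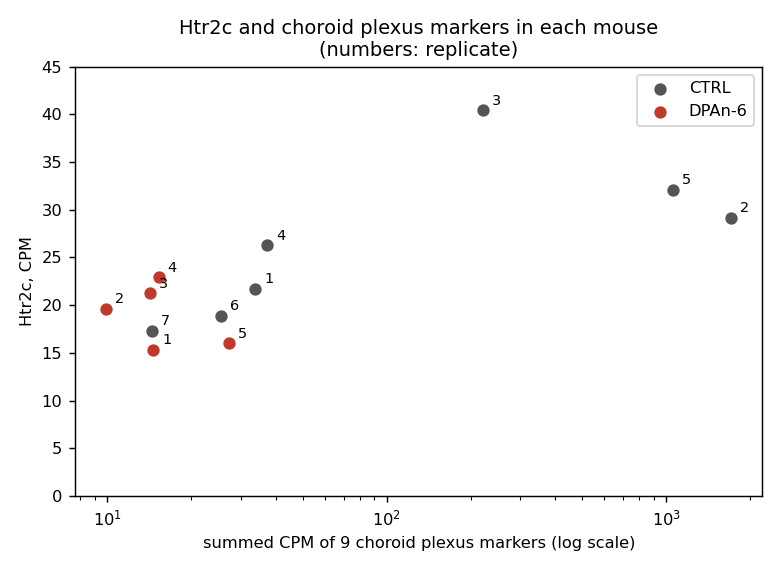
Htr2c in CPM (y axis) against the summed CPM of 9 choroid plexus markers on a log axis (x axis), with 1 point per mouse labelled by replicate (grey, CTRL; red, DPAn-6). CTRL replicates 2, 3 and 5 lie at marker sums of 221 to 1707 CPM and have the 3 highest Htr2c values, while the other 9 mice lie at 37.3 CPM or less.

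Htr5a, a Gi-coupled receptor and the serotonin receptor with the highest level per kilobase, stood at 21.7, 31.0 and 34 CPM (lowest, median and highest) in the CTRL mice and at 31.5, 30.3, 34.5, 31.4 and 27.7 CPM in the DPAn-6 mice. The groups overlapped, with a log2 fold change of 0.04 (SE 0.11, edgeR adjusted p = 0.907). Htr2a, the Gq-coupled receptor of cortical pyramidal cells at which hallucinogens act, stood at 15.1, 22.9 and 26.3 CPM in the CTRL mice and at 25.1, 31.5, 30.1, 24.5 and 21 CPM in the DPAn-6 mice. Its highest 2 values were DPAn-6 mice, and its log2 fold change was 0.23 (SE 0.13, edgeR adjusted p = 0.453). Of the Gi-coupled group, Htr1a, which is both the autoreceptor of raphe neurons and an inhibitory receptor of their targets, had a log2 fold change of 0.12 (SE 0.11), Htr1b, a receptor of axon terminals, one of 0.10 (SE 0.11), and Htr1f one of 0.15 (SE 0.19). Htr1d and Htr5b were near the lower limit of the test, at 0.326 to 2.04 CPM and 0.270 to 1.31 CPM over all mice, and their log2 fold changes of -0.20 (SE 0.37) and 0.51 (SE 0.32) had the widest errors of the class.

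The Gs-coupled receptors Htr4, Htr6 and Htr7 had log2 fold changes of 0.01 (SE 0.23), 0.30 (SE 0.18) and -0.02 (SE 0.13), and the channel subunit Htr3a, which marks a class of cortical interneurons, one of -0.055 (SE 0.15). For Htr6, CTRL replicate 3 stood at 2.67 CPM, the other CTRL mice at 5.18 to 7.43 CPM and the DPAn-6 mice at 6.41 to 7.69 CPM. CTRL replicate 3 was the library with low GC-rich transcripts, and the Htr6 transcript has a GC content of 63.1%. The same library stood lowest of all mice in Adra1d (16.6 CPM, GC content 65.4%) and Adra2c (10.4 CPM, GC content 65.5%). For these 3 receptors, those above 60% GC, CTRL replicate 3 deviated by -1.27 to -1.14 on the log2 scale from the mean of the other CTRL mice, whereas for the 6 receptors below 45% GC it deviated by 0.01 to 0.77. Without CTRL replicate 3, Htr6 had a log2 fold change of 0.19, Adra1d of 0.11 and Adra2c of -0.05, beside 0.30, 0.22 and 0.07 with all mice.

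**Figure D4:**
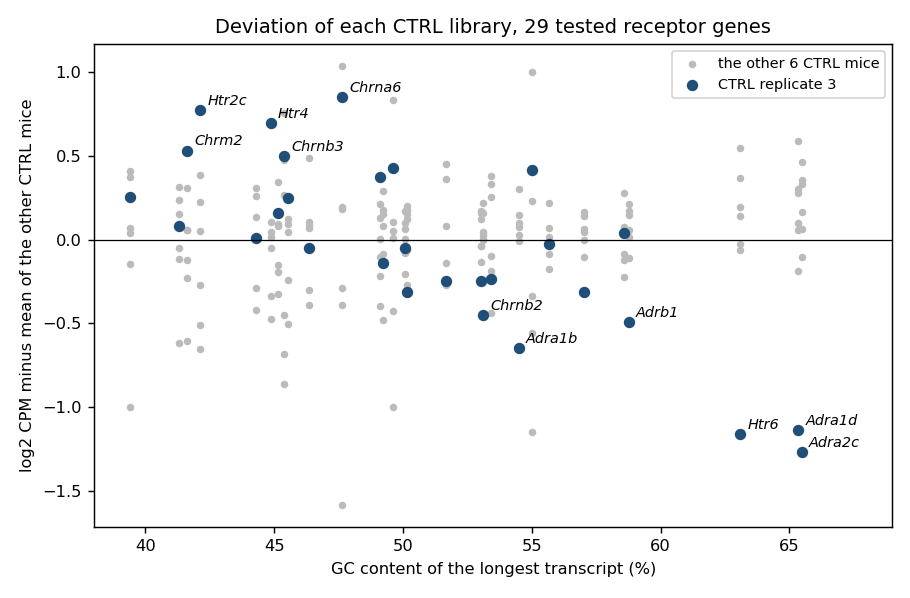
Deviation of each CTRL library from the mean of the other CTRL mice in log2 CPM (y axis) against the GC content of the longest transcript in percent (x axis) for the 29 tested receptor genes; blue points are CTRL replicate 3 and grey points the other 6 CTRL mice. Htr6, Adra1d and Adra2c lie at -1.27 to -1.14 in CTRL replicate 3.

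Among the adrenergic receptors, 2 of 6 had an unadjusted p below 0.05, both with the lower mean in the DPAn-6 mice. Of all genes tested, 14.5% had such a p, and 9.02% had it with the lower mean. Adra2a is the Gi-coupled receptor through which noradrenaline restrains its own release and which in the prefrontal cortex is the target of guanfacine. It stood at 20.6, 24.1 and 27.7 CPM (lowest, median and highest) in the CTRL mice and at 21.4, 18.7, 19.9, 17.6 and 20.2 CPM in the DPAn-6 mice. DPAn-6 replicate 1 lay within the CTRL range and the other 4 DPAn-6 mice lay below all CTRL mice. The log2 fold change was -0.29 (SE 0.085, edgeR unadjusted p = 0.00341, adjusted p = 0.101), and the exact permutation test gave p = 0.00631, where 0.00126 is the smallest p that the 792 splits allow. Without CTRL replicate 3 the log2 fold change was -0.28 and the adjusted p 0.0458, in a setting where 953 of 15616 genes had an adjusted p below 0.05, against 243 of 15688 with all mice. With Ttr as covariate the log2 fold change of Adra2a was -0.20 (edgeR unadjusted p = 0.0902). In that setting 679 of 15688 genes were lower at an unadjusted p below 0.05, against 1415 without the covariate.

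Adra1a, a Gq-coupled receptor, stood at 17.5, 19.9 and 21.9 CPM in the CTRL mice and at 13.4, 19.2, 18.1, 16.4 and 12.9 CPM in the DPAn-6 mice. The lowest 3 values of all were those of DPAn-6 replicates 5, 1 and 4, and the other 2 DPAn-6 mice lay within the CTRL range. Its log2 fold change was -0.33 (SE 0.11, edgeR unadjusted p = 0.00741, adjusted p = 0.149; exact permutation p = 0.00884), and the unadjusted p stayed below 0.05 in 27 of 27 alternative settings. The other Gq-coupled adrenergic receptors had the opposite sign. Adra1b had a log2 fold change of 0.21 (SE 0.12, edgeR adjusted p = 0.432). Adra1d, the adrenergic receptor with the highest level per kilobase, stood at 16.6, 34.5 and 46.1 CPM in the CTRL mice and at 46.2, 37.5, 45.6, 35.7 and 35.1 CPM in the DPAn-6 mice, with a log2 fold change of 0.22 (SE 0.17, edgeR adjusted p = 0.632). Whether the 3 Gq-coupled adrenergic receptors differed from each other in their response was not tested. Adra2c, a Gi-coupled receptor, stood at 24.2 to 26.2 CPM in the DPAn-6 mice, within the CTRL range, and Adrb1, the main beta receptor of cortical neurons, at 42.5 to 44.5 CPM against 30.1 to 45.7 CPM in the CTRL mice, with a log2 fold change of 0.07 (SE 0.09).

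The muscarinic receptors held the receptor genes whose groups did not overlap. Chrm3, a Gq-coupled receptor, stood at 62.1, 80.4 and 84.2 CPM (lowest, median and highest) in the CTRL mice and at 93.2, 92.5, 89.9, 95.1 and 86.0 CPM in the DPAn-6 mice. Each DPAn-6 mouse lay above each CTRL mouse, and CTRL replicates 3, 2 and 1 were the lowest. The log2 fold change was 0.26 (SE 0.08, edgeR unadjusted p = 0.00613, adjusted p = 0.135; exact permutation p = 0.00884). With Ttr as covariate the log2 fold change of Chrm3 was 0.14 (edgeR unadjusted p = 0.187). In that setting 324 of 15688 genes were higher at an unadjusted p below 0.05, against 865 without the covariate. Chrm4, a Gi-coupled receptor made in cortex and strongly in striatum, stood at 17.9, 22.1 and 23.8 CPM in the CTRL mice and at 24.4, 25.1, 28.2, 24.8 and 26.5 CPM in the DPAn-6 mice. Here too each DPAn-6 mouse lay above each CTRL mouse, although DPAn-6 replicate 1 (24.4 CPM) and CTRL replicate 6 (23.8 CPM) were close. The log2 fold change was 0.23 (SE 0.08, edgeR unadjusted p = 0.00988, adjusted p = 0.168; exact permutation p = 0.00253). Once trends on GC content and transcript length had been taken out of each library, the Chrm4 value was 0.17 with an unadjusted p of 0.0729. The summed level of 8 striatal markers was 253 to 683 CPM in the CTRL mice and 242 to 524 CPM in the DPAn-6 mice. The medians were 352 and 485 CPM, and the groups overlapped, with both the lowest sum (DPAn-6 replicate 1) and the highest (CTRL replicate 1) going against the order of the medians. The inhibitory neuron markers did not overlap between the groups. The part of either list in the muscarinic values was not tested.

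Chrm1, the Gq-coupled M1 receptor of pyramidal cells and the receptor gene with the highest level, stood at 211, 239 and 271 CPM in the CTRL mice and at 252, 237, 260, 248 and 242 CPM in the DPAn-6 mice. All DPAn-6 mice lay within the CTRL range, and the log2 fold change was -0.01 (SE 0.07, edgeR adjusted p = 0.975). Chrm2, the Gi-coupled receptor by which cholinergic terminals restrain release, stood at 19.4 to 25.3 CPM in the DPAn-6 mice and 15 to 29.4 CPM in the CTRL mice, with a log2 fold change of -0.02 (SE 0.14). Whether Chrm3 or Chrm4 differed from Chrm1 in response was not tested.

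**Figure D5:**
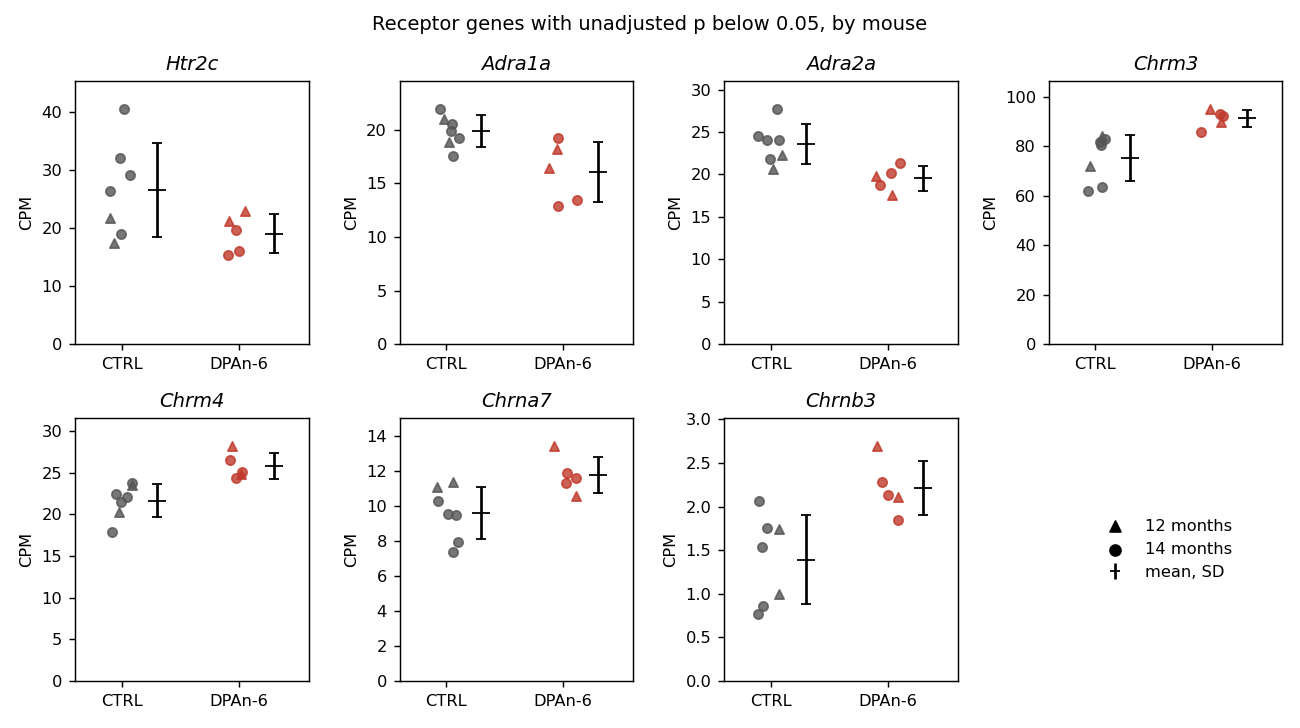
CPM by mouse (y axis, from 0) of the 7 receptor genes with an unadjusted p below 0.05, with CTRL in grey and DPAn-6 in red, triangles for mice of 12 months, circles for mice of 14 months, and the mean with its SD in black. The groups do not overlap for Chrm3 and Chrm4, and overlap for the other 5 genes.

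Among the nicotinic subunits, 5 of 7 had a higher mean in the DPAn-6 mice, and 2 had an unadjusted p below 0.05, both higher. Of all genes tested, 48.7% had a positive log2 fold change. An unadjusted p below 0.05 was found for 14.5% of all genes, and for 5.51% with the higher mean. Chrna7, the subunit of the calcium-permeable channel that amyloid peptide is known to bind, stood at 7.37, 9.52 and 11.4 CPM (lowest, median and highest) in the CTRL mice and at 11.9, 11.3, 13.4, 10.6 and 11.6 CPM in the DPAn-6 mice. DPAn-6 replicates 1, 3 and 5 lay above all CTRL mice and the other 2 within their range. The log2 fold change was 0.27 (SE 0.11, edgeR unadjusted p = 0.0301, adjusted p = 0.280; exact permutation p = 0.0215). With 1 mouse left out the log2 fold change ranged from 0.22 to 0.32, while the unadjusted p was 0.0537 without CTRL replicate 2, 0.0617 without CTRL replicate 4, 0.0506 without DPAn-6 replicate 1 and 0.0931 without DPAn-6 replicate 3. With the choroid plexus gene Ttr as covariate the log2 fold change of Chrna7 was 0.16 (edgeR unadjusted p = 0.3). That covariate left 324 of 15688 genes higher at an unadjusted p below 0.05, against 865 without it.

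Chrnb3, an accessory subunit known from dopamine neurons and the visual pathway, was measured at few counts, 12 to 36 in the CTRL mice and 38 to 49 in the DPAn-6 mice. This corresponds to 0.769, 1.54 and 2.06 CPM (lowest, median and highest) and to 2.28, 2.13, 2.11, 2.70 and 1.85 CPM. DPAn-6 replicates 1 to 4 lay above all CTRL mice and replicate 5 within their range. The log2 fold change of 0.64 (SE 0.23, edgeR unadjusted p = 0.0154, adjusted p = 0.206; exact permutation p = 0.0189) was the highest of the 29 receptors. Chrna6, which lies beside Chrnb3 on chromosome 8 (GRCm38, 27368711 to 27413944 for the pair) and assembles with it, had a log2 fold change of 0.54 with an SE of 0.47, and stood at 0.117 to 0.667 CPM in the CTRL and 0.151 to 1.25 CPM in the DPAn-6 mice. The lowest mouse was CTRL replicate 1, the next lowest DPAn-6 replicate 5, and the groups overlapped.

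Chrna4, the nicotinic subunit with the highest level per kilobase, stood at 50.8, 55.7 and 64.3 CPM in the CTRL mice and at 65.0, 58.4, 60.7, 55.5 and 62.5 CPM in the DPAn-6 mice, with a log2 fold change of 0.07 (SE 0.07, edgeR adjusted p = 0.691). Its partner Chrnb2 had a log2 fold change of -0.04 (SE 0.08, edgeR adjusted p = 0.881) and ranged over 59.5 to 71.3 CPM in the DPAn-6 and 48.4 to 72.1 CPM in the CTRL mice. Chrna5, an accessory subunit of that receptor, had a log2 fold change of 0.18 (SE 0.18). Chrna2, known from a set of deep-layer interneurons, had one of -0.33 (SE 0.25) at 0.329 to 0.809 CPM over all mice.

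Mice of 14 months were compared with mice of 12 months with treatment in the model. In edgeR 0 of the 29 receptors had an adjusted p below 0.05, and 1 (3.45%) had an unadjusted p below 0.05, against 1.78% of all genes. This was Adra1b, with a log2 difference of -0.25 at 14 against 12 months (SE 0.11, edgeR unadjusted p = 0.0338, adjusted p = 1). For the interaction of treatment and age 0 receptors had an adjusted p below 0.05, and 2 (6.90%) had an unadjusted p below 0.05, against 4.26% of all genes, namely Htr2c and Chrna6. Chrna6 averaged 0.255 CPM in CTRL and 0.951 CPM in DPAn-6 mice of 12 months, and 0.439 and 0.379 CPM in those of 14 months, an interaction of -2.14 on the log2 scale (edgeR unadjusted p = 0.0349). With 2 mice of 12 months in each group, these values rest on few animals.

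The genes around the receptors were examined by list. The cells that release these transmitters left little RNA in the cortex: Slc6a4, the serotonin transporter, had 0 to 6 counts per library, Slc6a2, the noradrenaline transporter, 0 to 3, Dbh, which makes noradrenaline, 1 to 8, Tph2, which makes neuronal serotonin, 5 to 18, and Chat, which makes acetylcholine, 3 to 41. In edgeR, the lists of supply genes held 0 genes with an adjusted p below 0.05 of 7 tested for acetylcholine, 4 for serotonin and 4 for noradrenaline. At an unadjusted p below 0.05 stood Maob, which breaks down monoamines, with a log2 fold change of -0.25 (SE 0.115).

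Downstream of the receptors, the 11 genes of RGS proteins, which speed the shut-off of G proteins, held the 1 gene of all these lists with an adjusted p below 0.05. In the same edgeR fit, 243 of 15688 genes (1.55%) passed this threshold. Whether the lists held more such genes than that share was not tested. Rgs4, which acts on Gi and Gq and is abundant in cortical neurons, stood at 266, 309 and 346 CPM (lowest, median and highest) in the CTRL mice and at 376, 402, 433, 402 and 371 CPM in the DPAn-6 mice. Each DPAn-6 mouse lay above each CTRL mouse, and Rgs4 rose by a log2 fold change of 0.33 (SE 0.07, edgeR adjusted p = 0.0387; exact permutation p = 0.00253). The adjusted p was below 0.05 in 11 of 27 alternative settings, among them DESeq2 (0.00203) and the set without CTRL replicates 2, 3 and 5 (0.0304), and ranged from 0.00203 to 0.720. It was above 0.05 in 9 of the 12 settings that left out 1 mouse (0.0525 to 0.148), and below it without CTRL replicate 3, 4 or 7, while the log2 fold change stayed between 0.29 and 0.36 in all 12. Over the 27 settings the log2 fold change ranged from 0.19, with Ttr as covariate, to 0.37. Rgs8 had a log2 fold change of 0.22 (SE 0.10, edgeR adjusted p = 0.332), and the other 9 genes had an unadjusted p above 0.05.

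Of 18 G protein genes tested, Gnb5 (0.22, SE 0.10) and Gna15 (-0.44, SE 0.18) had an unadjusted p below 0.05, where 14.5% of all genes did. Of the 9 adenylyl cyclases, which make cyclic AMP, 4 did, set against the same 14.5%: Adcy1, the neuronal calcium-stimulated form, with a log2 fold change of -0.32 (SE 0.09, edgeR adjusted p = 0.0895), Adcy9 with -0.27 (SE 0.10), Adcy7 with -0.34 (SE 0.16) and Adcy8 with 0.21 (SE 0.09). Of 4 phospholipase C beta genes, Plcb3 had a log2 fold change of -0.22 (SE 0.085), and of 7 receptor kinases and arrestins Grk3 had one of -0.23 (SE 0.08, edgeR adjusted p = 0.176). Among 10 tested chaperones and Ly6 proteins of nicotinic receptors, Tmem35a had an unadjusted p below 0.05. Tmem35a encodes NACHO, the chaperone that Chrna7 channels require for assembly, and its log2 fold change was 0.21 (SE 0.07, edgeR unadjusted p = 0.00580, adjusted p = 0.133; exact permutation p = 0.00126, the smallest possible).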

How the data were processed

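Cortical RNA of 12 E4FAD mice (7 CTRL, 5 DPAn-6) was sequenced, 1 library for each. The authors made KAPA mRNA libraries after poly(A) selection and aligned the reads with STAR 2.5.3a to GRCm38 (per the submitters' processing notes), and the deposited table holds counts that were not normalized. Whether they were counted by strand is not given in the sources used here. Nothing states that the mice came from separate litters or cages, so p-values measure the spread between these mice. Gene names, positions, exon lengths and GC content were taken from GENCODE M21 on GRCm38, in which 50339 of 50563 identifiers matched; 30214 genes had a count.

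Counts were tested in R 4.3.3 by edgeR's quasi-likelihood test (edgeR 4.0.16, glmQLFTest after glmQLFit, with TMM factors and no covariate) over all 15688 genes that passed the filter on low counts (filterByExpr), with Benjamini-Hochberg adjustment over all of them and a threshold of 0.05. The age term and the treatment by age interaction were fitted in the same way. Log2 CPM was computed with a pseudocount of 0.5, and the groups were compared for each receptor by an exact permutation test (two-sided, over the 792 splits of the mice), whose smallest p is 0.00126 (Python 3.11.15, scipy 1.17.1). The p-values of the exact tests were not adjusted. The scripts were tested on simulated data.

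Full statistics are given for receptors with an adjusted or unadjusted p below 0.05, for receptors whose groups do not overlap and for the receptor with the highest CPM per kilobase in each class, and in the pathway lists for genes with an adjusted p below 0.05 or up to 2 with the lowest unadjusted p in each direction. The receptors, the lists and the rule were chosen with earlier results of these data known. Htr2a, Htr6 and Adra2c are given in more detail after their values were seen. Adcy7 is named beyond the limit of 2 lower genes in its list. The alternatives were DESeq2 1.42.0, limma-voom (limma 3.58.1) with and without sample weights, no TMM factors, RLE factors, no filter, at least 1 CPM in 5 mice, age or Ttr as covariate, mice of 14 months alone, a block for the replicate number, and 1 mouse at a time left out; removal of length and GC trends, and leaving out CTRL replicates 2, 3 and 5 together, were added after the data were seen. No library was left out of the main values. The list of remaining receptor genes of the same families is not reported here.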

Additional observations from a re-analysis of the deposited data

Results flagged for a closer look

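In 8 of 58 sets of values (29 receptors in each of the 2 groups), 1 mouse stood apart from the others of its group by Dixon's criterion, where chance would give about 2.90. Of these, 4 concern CTRL replicate 3, which had the lowest log2 CPM of its group in Htr6 (1.44, next lowest 2.38), Adra1b (3.995, next lowest 4.55), Adra2c (3.39, next lowest 4.39) and Chrnb2 (5.599, next lowest 5.98). This is the library in which GC-rich transcripts were low. Htr6 (63.1%) and Adra2c (65.5%) lie above 60% GC, but Adra1b (54.5%) and Chrnb2 (53.1%) do not. For the 20 receptors of 45 to 60% GC, the median deviation of CTRL replicate 3 from the other CTRL mice was -0.049 on the log2 scale. CTRL replicate 2 stood lowest in Htr1f, the Gi-coupled serotonin receptor, at 0.59 log2 CPM (next lowest 1.32). In the DPAn-6 group, replicate 5 stood lowest in Htr1b at 3.04 log2 CPM (next lowest 3.33) and highest in Adra2c at 4.71 (next highest 4.61), and replicate 3 stood highest in Chrnb2 at 6.16 (next highest 5.96).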

How the results depend on the processing

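The number of genes with an adjusted p below 0.05 was 243, and it was 671 with DESeq2, 1267 with limma-voom and sample weights, 471 with length and GC trends removed, 541 without CTRL replicates 2, 3 and 5, 17 with Ttr as covariate, 9 in mice of 14 months, and 64 to 953 with 1 mouse left out. The number of receptors below that threshold was 0, and it was 1 with DESeq2 (Adra2a) and 4 with limma-voom and sample weights. With the replicate block and length and GC trends removed it was 1 (Htr2c, edgeR adjusted p = 0.0371), where 164 of 15497 genes passed. With 1 mouse left out it was 0 to 1, the 1 being Adra2a without CTRL replicate 3. Receptors with an unadjusted p below 0.05 and a higher mean in the DPAn-6 mice numbered 4, and 7 with limma-voom and sample weights, 2 in mice of 14 months and 0 with Ttr as covariate. Over all genes these numbers were 865 of 15688, 1881 of 15688, 574 of 15953 and 324 of 15688. Receptors with a lower mean numbered 3, and 4 with DESeq2, 4 without a filter and 1 with Ttr. Over all genes these numbers were 1415 of 15688, 1742 of 30213, 1944 of 30214 and 679 of 15688. For age, receptors with an unadjusted p below 0.05 numbered 1, with 2 after removal of length and GC trends and 0 to 2 with 1 mouse left out. Over all genes such a p was found for 279 of 15688, and after that removal for 248 higher and 246 lower at 14 months. With 1 mouse left out, 111 to 352 genes were higher and 58 to 209 lower. Of the 7 receptors, Adra1a kept an unadjusted p below 0.05 in 27 of 27 settings, Adra2a and Chrm3 in 26, Chrnb3 in 25, Chrm4 in 23, Htr2c in 22 and Chrna7 in 20, and none of the 7 changed direction in any of these settings. With Ttr as covariate, the log2 fold change was 0.220 for Chrm4 (unadjusted p = 0.0586), -0.198 for Adra2a (0.0902), 0.460 for Chrnb3 (0.169), 0.160 for Chrna7 (0.3), 0.137 for Chrm3 (0.187) and -0.103 for Htr2c (0.670), beside 0.230, -0.294, 0.635, 0.273, 0.255 and -0.508 without it. Htr2c was at -0.282 with sample weights, and Chrm4 at 0.132 with the replicate block and the trends removed. The cause was not tested.

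Replicate numbers are shared between the groups, and nothing states that they pair the mice. Same-numbered mice correlated in their deviations at -0.116 to 0.164, and no mouse of the 5 correlated best with its own number. With correlations of at most 0.278 for any pair, these values cannot show whether the mice were paired by litter or cage. With the replicate number as a block, 69 genes had an adjusted p below 0.05, against 148 in the same 10 mice unpaired. Under the block the log2 fold change changed sign for Htr4 (-0.129), Htr7 (0.031) and Chrm1 (0.045), as it did unpaired (-0.082, 0.032 and 0.042), and with the block and the trends removed for Htr4 (-0.095), Htr7 (0.013), Chrm1 (0.077), Chrm2 (0.049) and Chrnb2 (0.033).

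Other changes of sign concerned receptors with a log2 fold change near 0 or few counts. With Ttr as covariate they were Htr1b (-0.054), Htr1f (-0.011), Htr3a (0.117), Htr5a (-0.056), Htr7 (0.006) and Adra2c (-0.043). In mice of 14 months they were Htr5a (-0.047), Chrna5 (-0.043) and Chrna6 (-0.299). Without CTRL replicates 2, 3 and 5 they were Htr3a (0.033), Adra2c (-0.093) and Chrm2 (0.005). With limma-voom they were Htr4 (-0.005) and Chrm2 (0.003), with sample weights Adra2c (-0.030) and Chrm2 (0.072), without TMM factors Chrm1 (0.014) and Chrm2 (0.008), without a filter Chrm1 (0.009) and Chrm2 (0.001), and with the trends removed Chrm1 (0.042), Chrm2 (0.012) and Chrnb2 (0.015). With 1 mouse left out, Htr1d ranged from -0.557 to 0.029, Htr3a from -0.113 to 0.013, Htr4 from -0.230 to 0.139, Htr5a from -0.019 to 0.091, Htr7 from -0.101 to 0.036, Adra2c from -0.052 to 0.130, Chrm1 from -0.034 to 0.022 and Chrm2 from -0.090 to 0.075. Depth limits what can be said of Adra2b, Chrm5, Chrna3 and Chrnb4, which did not pass the filter of the main test. It also gives Htr1d, Htr4, Htr5b, Chrna2, Chrna6 and Chrnb3 the least precise fold changes.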
